A study of Homo sapiens with 11 samples.

Results

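Heme is made and broken down by 2 short enzyme routes, and the 8 genes described here are grouped under them. They were found by symbol in both count tables, which hold 26485 genes each, and all 8 passed the filter on low counts at both times. The 4 breakdown genes are HMOX1, HMOX2, BLVRA and BLVRB, and the 4 synthesis genes are ALAS1, UROD, FECH and PPOX. The cells were Caki1-SR, a subline of Caki-1, the established human line from a skin metastasis of clear cell renal cell carcinoma. Sunitinib, which blocks receptor tyrosine kinases, no longer stops this subline, and its growth medium holds 1 µM sunitinib, shared by CTRL and ODC. The study names clone 1 of it for the RNA work at 24 h. Its main text does not describe the libraries at 2 h, so their clone is not known here. The ODC groups received 4 drugs together. These were Rapta-C at 2 µM, which holds ruthenium, the EGFR blocker erlotinib at 1 µM, the diabetes drug metformin at 1 µM, and the plant lactone parthenolide at 5 µM. The CTRL groups were called untreated in one place and sham-treated in another by the study. There were 3 CTRL and 3 ODC libraries at 24 h, and 2 CTRL and 3 ODC libraries at 2 h, 11 in all. The months in the sample titles differ between the times, so time and month cannot be told apart.

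Heme synthesis starts in the mitochondrion with ALAS1, the first and rate-limiting enzyme outside the red cell lineage. UROD and PPOX act at later steps on the way to protoporphyrin, and FECH inserts the iron that completes heme. Heme oxygenase opens the heme ring and releases biliverdin, carbon monoxide and iron: HMOX1 is the inducible form and HMOX2 the constitutive one. Biliverdin is then reduced by BLVRA. BLVRB is also named as a biliverdin reductase and is known as a flavin reductase, and whether it acts on this biliverdin was not measured. HMOX1 is a textbook target of the activator NRF2 (gene NFE2L2) and of the repressor BACH1, which leaves DNA when it binds heme, and the released iron is stored in ferritin.

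At 24 h the libraries held 17785229 to 20882856 counts each, and at 2 h 25782895 to 31118349. Levels are given in CPM, counts relative to a library's TMM-scaled size, and a count of 3 was worth 0.0964 to 0.169 CPM. Intervals and floors of this kind cover counting error only. Replicate libraries of a group differed by more than sampling noise, with a chi-square per gene between 19.7 and 61.5, so each was counted as 1 sample. No label says that they came from separate cultures, and p-values then measure only the spread between these libraries. The renal marker PAX8 and the epithelial keratins KRT8 and KRT18 were abundant, whereas CA9, a hypoxia gene that defines many clear cell tumours, had at most 1 count and PAX2 at most 4. At 24 h the 11 renal markers summed to between 4859.8 and 5625 CPM in CTRL and between 3879.8 and 4801 in ODC, without overlap. The sums at 2 h lay apart the other way, between 5494.9 and 5639.6 CPM in CTRL and between 5712.5 and 5981 in ODC. VIM was the largest part, at 2450.8 to 3796 CPM in any library, while EPCAM had at most 100 counts, NDUFA4L2 67, CUBN 63 and LRP2 7. The part of the shift at 24 h in the results at that time was not tested. Of 9 erythroid markers, 8 were at or under the floor in every library, and ALAS2, the red cell form of the first synthesis enzyme, had at most 1 count. The 4 liver markers had at most 35 counts.

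At 2 h the libraries labelled CTRL 2 h replicate 2 and ODC 2 h replicate 2 stood apart from the others of their groups. EGR1, an early target of ERK signalling chosen here after its values were seen, was at 40.8 CPM in CTRL replicate 1 but 2.01 in the library labelled CTRL replicate 2. In the ODC libraries it was at 3.91 and 6.63 CPM in replicates 1 and 3 but 158 in the library labelled ODC replicate 2. DUSP6, a phosphatase that damps ERK, had 18.1 and 1.38 CPM in the CTRL libraries, and 2.38, 15.8 and 2.42 in ODC replicates 1, 2 and 3. Both genes were thus low in the library labelled CTRL replicate 2 and high in the library labelled ODC replicate 2, against the labels and against 24 h, where EGR1 was lower in all ODC libraries (2.45 to 7.72 CPM) than in all CTRL libraries (18.9 to 41.8 CPM). SPRY4 and PHLDA1, also chosen after their values were seen, followed this split in both libraries. PHLDA1 had 340 and 45.4 CPM in the CTRL libraries, and 57.7, 169 and 76.5 in ODC replicates 1, 2 and 3. OSGIN1, TXNRD1 and SRXN1, chosen in the same way, were high in the library labelled CTRL replicate 2 and low in that labelled ODC replicate 2. HSPA1B and CHAC1 did not follow the split in every library at 2 h. HSPA1B had 20.1 and 98.0 CPM in the CTRL libraries, and 91.7, 18.4 and 19.1 in ODC replicates 1, 2 and 3. ODC replicate 3 was thus low for HSPA1B, like the library labelled ODC replicate 2. CHAC1, a stress gene also chosen after its values were seen, was at 3.40 CPM in CTRL replicate 1 and 34.3 in the library labelled CTRL replicate 2, and at 20.3, 44.6 and 36.2 CPM in ODC replicates 1, 2 and 3, so the library labelled ODC replicate 2 sat with its group. The labels were kept, and the results at 2 h are given with and without both libraries.

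After 24 h of ODC, the breakdown genes HMOX1 and BLVRB and the synthesis gene ALAS1 were higher in all 3 ODC libraries than in any CTRL library, UROD was lower in all 3, and HMOX2, BLVRA, FECH and PPOX overlapped. Of the 8 genes, 1 (BLVRB) passed a Benjamini-Hochberg adjusted p under 0.05 in edgeR's quasi-likelihood test, beside 0.189% of the 12689 genes tested, and 3 of 8 (HMOX1, BLVRB and ALAS1) had an unadjusted p under 0.05, beside 12.2%. The groups did not overlap for 4 of the 8, with 3 higher and 1 lower, beside 17.9% of all genes (9.42% higher and 8.52% lower). The genes were selected on their ODC against CTRL values at both times, so their values are a description, no p-value is given for any of them, and nothing is read from these counts. In bulk RNA, fewer cells of a kind and less RNA per cell cannot be told apart.

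**Figure D1:**
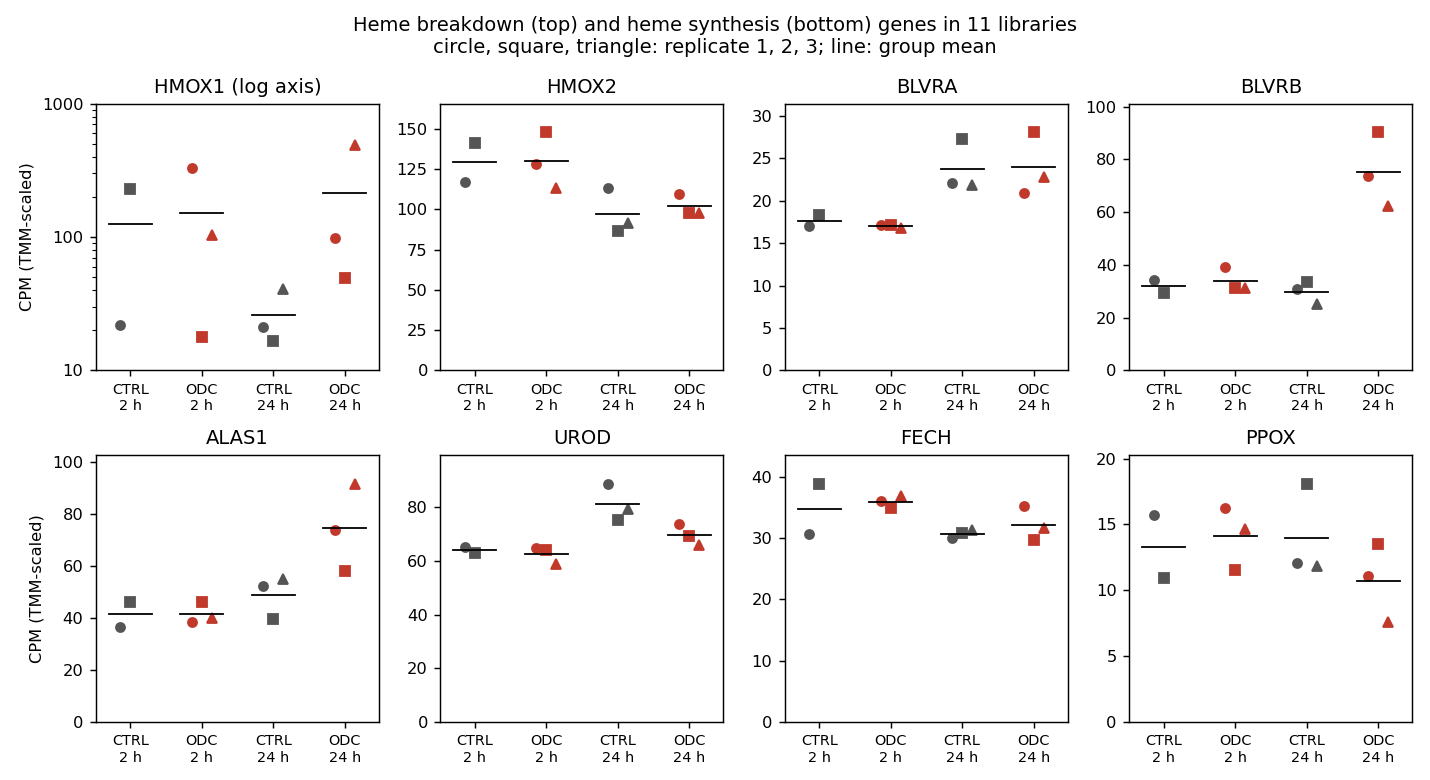
Level of each gene in every library (vertical axis, TMM-scaled CPM, on a log axis for HMOX1 and from 0 for the others), by group. Points are libraries, with circle, square and triangle for replicates 1, 2 and 3, and lines are group means. BLVRB stands between 62.2 and 90.3 CPM in the ODC libraries at 24 h and between 25.1 and 39.2 in the other 8 libraries, while HMOX1 spreads widely within groups.

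HMOX1, on chromosome 22 (hg38, 35380361 to 35394214, plus strand), had the widest spread of the 8. Its level at 24 h was 21.0, 16.7 and 40.6 CPM in CTRL replicates 1, 2 and 3, and 98.3, 49.6 and 489.5 CPM in ODC replicates 1, 2 and 3. All ODC libraries were above all CTRL libraries, but ODC replicate 2 lay just above CTRL replicate 3, and ODC replicate 3 lay far above the rest. The means were 26.1 ± 12.7 (SD, n = 3) and 212 ± 241 (SD, n = 3), a log2 fold change of 3.03 with a standard error (SE) of 0.82. Taken 1 at a time, the ODC libraries were 3.77, 1.90 and 18.8 times the CTRL mean, and without ODC replicate 3 the log2 fold change was 1.51. The pooled SD of its log2 CPM within groups was 1.28 at 24 h, beside a median of 0.18 over 12603 genes, of which 99.9% had a smaller one. Macrophages are rich in HMOX1. At 24 h 8 macrophage markers summed to between 5.96 and 6.21 CPM in the CTRL libraries and between 7.56 and 8.07 in the ODC libraries, without overlap. Most of that sum was CD68, a lysosomal gene. In any library CD14 had at most 72 counts, CSF1R 42, C1QA 17, LYZ 13, CD163 10, PTPRC 7 and MARCO 4. The part of this shift in the HMOX1 level was not tested.

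At 2 h the HMOX1 level was 21.9 CPM in CTRL replicate 1 and 229 in the library labelled CTRL replicate 2, and 329, 17.9 and 104 CPM in ODC replicates 1, 2 and 3. The 3 high libraries were the ones with low EGR1, and the 2 low libraries, CTRL replicate 1 and the library labelled ODC replicate 2, were the ones with high EGR1. With all 5 libraries the log2 fold change was 0.26 (SE 1.11), and the pooled SD of 2.19 was the third largest of 12603 genes. Without the libraries labelled CTRL replicate 2 and ODC replicate 2, which leaves 1 CTRL and 2 ODC libraries and assumes that the lone CTRL library varies like the others, it was 3.32 (SE 0.44). HMOX1 was among the genes seen when these libraries were set aside, together with OSGIN1 and TXNRD1, which follow it, so this value is fixed by that choice and supports nothing. With 1 library left out at a time, the log2 fold change was 2.79 without the library labelled CTRL replicate 2, 0.78 without that labelled ODC replicate 2, 0.46 without ODC replicate 3, -0.61 without CTRL replicate 1 and -1.05 without ODC replicate 1. Its direction at 2 h thus depends on single libraries.

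HMOX2 (chromosome 16, 4474690 to 4510347, plus strand), the constitutive oxygenase, stayed within a narrow range. It was at 113, 86.8 and 91.4 CPM in the CTRL libraries and at 109.6, 97.9 and 97.9 CPM in the ODC libraries at 24 h, so the groups overlapped. Its log2 fold change was 0.07 (SE 0.12) at 24 h and 0.01 (SE 0.13) at 2 h. The gene overlaps NMRAL1 on the other strand, and since the strand setting of the counting is not stated, reads of the pair could not be told apart if counting ignored strand.

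The makeup of the oxygenase step moved with these levels. Per kilobase of canonical transcript, HMOX1 made up 16.7%, 17.2% and 32.3% of HMOX1 plus HMOX2 in the CTRL libraries at 24 h and 49.1%, 35.3% and 84.3% in the ODC libraries. All ODC shares were above all CTRL shares, though 35.3% and 32.3% are close, and the means were 56.3% ± 25.3 and 22.0% ± 8.92 (SD, n = 3 each). At 2 h the share was 16.8% in CTRL replicate 1 and 63.6% in the library labelled CTRL replicate 2, and 73.5%, 11.5% and 49.6% in the ODC libraries. Without division by length the means at 24 h were 54.8% in ODC and 20.8% in CTRL.

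**Figure D2:**
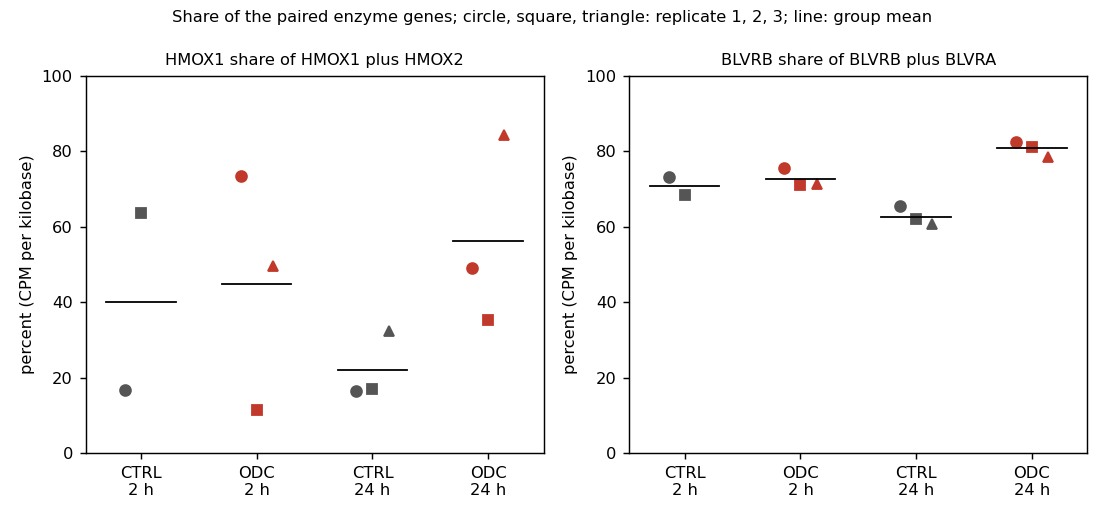
Share of HMOX1 in HMOX1 plus HMOX2 (left) and of BLVRB in BLVRB plus BLVRA (right), in percent of CPM per kilobase on a vertical axis from 0 to 100, by group. Points are libraries and lines are group means. The BLVRB share is between 78.6% and 82.6% in the ODC libraries at 24 h and between 60.7% and 75.5% elsewhere, and the HMOX1 share runs from 11.5% to 84.3%.

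BLVRB, on chromosome 19 (40447765 to 40465764, minus strand), was the breakdown gene with the steadiest difference. At 24 h it was at 31.0, 33.3 and 25.1 CPM in the CTRL libraries and at 73.6, 90.3 and 62.2 CPM in the ODC libraries. The lowest ODC library was well above the highest CTRL library, and each ODC library was 2.09 to 3.03 times the CTRL mean. The means were 29.8 ± 4.24 and 75.4 ± 14.1 CPM (SD, n = 3 each), a log2 fold change of 1.34 (SE 0.17). At 2 h the levels were 34.5 and 29.3 CPM in the CTRL libraries and 39.2, 31.4 and 31.1 CPM in the ODC libraries. The groups overlapped there, with a log2 fold change of 0.09 (SE 0.14), and of 0.04 (SE 0.18) without the libraries labelled CTRL and ODC 2 h replicate 2. A pseudogene of similar sequence, BLVRBP1, is annotated, and reads shared with it could not be checked from counts. BLVRB also overlaps an annotated Metazoa_SRP gene on the other strand.

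Its log2 fold change at 24 h lay between 1.18 and 1.46 in all 15 alternatives. Without any 1 of the 3 CTRL 24 h libraries, or without ODC 24 h replicate 1, it missed the adjusted threshold at values between 1.23 and 1.42. The effect at 24 h exceeded that at 2 h by 1.23 (SE 0.23), and by 1.28 without the libraries labelled CTRL and ODC 2 h replicate 2.

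BLVRA (chromosome 7, 43758680 to 43807342, plus strand), the other gene named as a biliverdin reductase, showed no such difference. Its levels at 24 h were 22.1, 27.3 and 21.8 CPM in CTRL and 20.9, 28.1 and 22.8 CPM in ODC, and the log2 fold changes were 0.01 (SE 0.15) at 24 h and -0.05 (SE 0.12) at 2 h. The BLVRB share of BLVRB plus BLVRA, per kilobase, was 65.4%, 62.1% and 60.7% in CTRL and 82.6%, 81.2% and 78.6% in ODC at 24 h. The means were 62.7% ± 2.42 and 80.8% ± 2.04 (SD, n = 3 each), without overlap. This share compares RNA levels only, and the reduction of biliverdin was not measured. At 2 h the shares were 73.2% and 68.3% in CTRL and 75.5%, 71.1% and 71.3% in ODC, which overlapped. BLVRA overlaps an unnamed annotated gene on the same strand, and the effect of that overlap on its counts could not be checked.

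The stretch before BLVRB is shown because 4 matches to the core of the antioxidant response element, the element that NRF2 binds, lie close together there. The core was searched as TGACNNNGC on both strands in the 10000 bases before the start of 19970 genes, where the median gene had 4 matches. BLVRB had 7 matches, a number reached by 10.7% of genes, and 4 of them fell within 300 bases, a density reached by 0.255% of genes. The printed window is hg38 chr19:40466764-40467063, minus strand, positions -1318 to -1019 from the transcript start, with the matches in capitals. All 4 read on the strand opposite to the printed one.
BLVRB: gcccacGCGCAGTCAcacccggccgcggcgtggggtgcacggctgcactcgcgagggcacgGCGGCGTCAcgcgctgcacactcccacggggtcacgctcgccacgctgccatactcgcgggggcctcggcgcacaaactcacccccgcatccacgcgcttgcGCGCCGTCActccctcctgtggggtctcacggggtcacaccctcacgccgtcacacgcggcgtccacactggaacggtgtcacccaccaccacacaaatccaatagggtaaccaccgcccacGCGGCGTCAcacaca

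HMOX1 had 10 such matches within the 10000 bases, a number reached by 1.23% of genes, with 4 of them between positions -9077 and -8990 from the start. FECH had 5, with 3 within 300 bases (2.2% of genes), PPOX had 6, HMOX2 had 5, and BLVRA, ALAS1 and UROD had 3 each. Of the ferritin genes, FTH1 had 9 (2.66% of genes) and FTL had 2, a number reached by 86.3% of genes. FTL rose by 2.04 on the log2 scale at 24 h. The heme transporter gene SLC48A1 and NQO1, searched for comparison only, had 3 each (69.8% of genes). A match is a description of letters and not a binding site, and no binding was measured here.

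**Figure D3:**
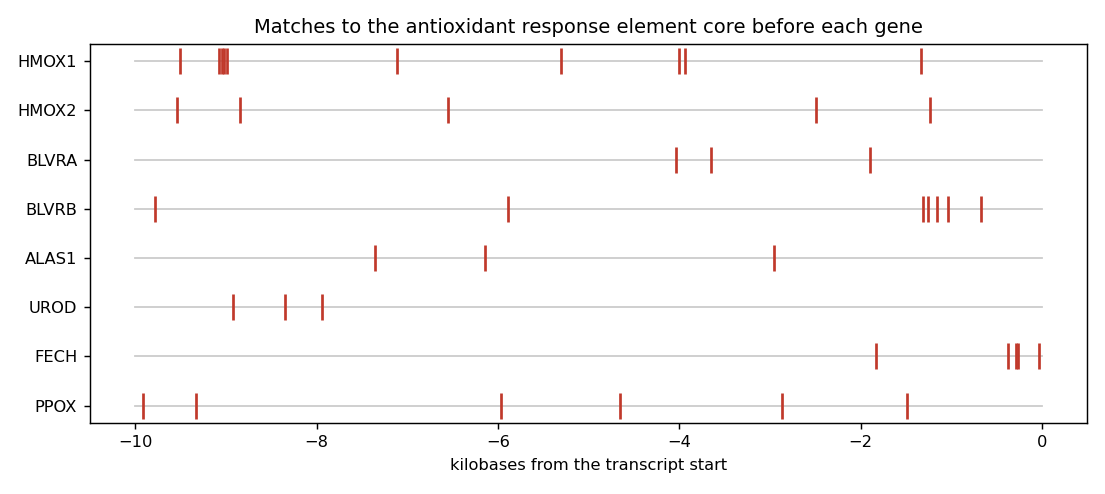
Position of each match to the antioxidant response element core (red ticks) in the 10 kilobases before the transcript start of each gene (horizontal axis, kilobases from the start). HMOX1 has 10 matches with a cluster of 4 near the far end, and BLVRB has 7 with a cluster of 4 between -1312 and -1033 bases from the start.

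Of the synthesis genes, ALAS1 (chromosome 3, 52198086 to 52214327, plus strand) was higher in ODC at 24 h. It was at 52.2, 39.5 and 55.0 CPM in the CTRL libraries and at 73.7, 58.1 and 91.6 CPM in the ODC libraries. The groups did not overlap, but ODC replicate 2 at 58.1 was close to CTRL replicate 3 at 55.0. The means were 48.9 ± 8.25 and 74.5 ± 16.8 CPM (SD, n = 3 each), a log2 fold change of 0.61 (SE 0.19), which missed the adjusted threshold and stayed between 0.43 and 0.75 in all 15 alternatives. ODC replicate 3 was highest and replicate 2 lowest for ALAS1 as for HMOX1, whereas BLVRB had the opposite order. At 2 h ALAS1 was at 36.5 and 46.2 CPM in CTRL and at 38.4, 46.1 and 40.1 CPM in ODC, with a log2 fold change of 0.01 (SE 0.14), and of 0.12 (SE 0.17) without the libraries labelled CTRL and ODC 2 h replicate 2.

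The ALAS1 promoter is shown because it was the only one, among the promoters matched for 7 of the 8 genes (all but HMOX1), with a site of nuclear respiratory factor, a regulator of genes for mitochondria. The site was searched as GCGCA, any base, then GCGC, on both strands in RefSeq promoters (250 bases before to 50 after the start), and 5.78% of 35116 promoters held it. ALAS1 held it at -9 and at 21 bases from the start, in capitals below (GRCh38.p14 chr3:52197833-52198132, plus strand, sequence from RefSeq).
ALAS1: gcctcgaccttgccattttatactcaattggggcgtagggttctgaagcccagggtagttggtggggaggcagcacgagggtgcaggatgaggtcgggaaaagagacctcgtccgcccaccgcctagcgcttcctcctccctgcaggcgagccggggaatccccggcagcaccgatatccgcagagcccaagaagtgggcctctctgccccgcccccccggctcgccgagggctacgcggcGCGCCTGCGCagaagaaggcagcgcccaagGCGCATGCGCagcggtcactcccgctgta

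The antioxidant response element core stood in 13.3% of all promoters and, among the 7, only in that of FECH, at -38. The E-box CACGTG stood in 7.26% of all promoters and, among the 7, only in the first of the promoters listed for HMOX2, at -28. No promoter of these genes held more than 1 of the 3 motifs.

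UROD (chromosome 1, 45010950 to 45015575, plus strand), which trims the side chains of uroporphyrinogen, was at 88.9, 75.2 and 79.2 CPM in CTRL and at 73.6, 69.4 and 65.9 CPM in ODC at 24 h. All ODC libraries were below all CTRL libraries, by a small margin between 75.2 and 73.6. The log2 fold change was -0.22 (SE 0.10), which missed the adjusted threshold, and the value at 2 h was -0.04 (SE 0.09). UROD overlaps HECTD3 on the other strand.

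FECH (chromosome 18, 57544377 to 57586732, minus strand) showed almost no difference, with 30.0, 30.9 and 31.4 CPM in CTRL and 35.2, 29.8 and 31.8 CPM in ODC at 24 h. Its log2 fold change was 0.07 (SE 0.11) at 24 h and 0.05 (SE 0.13) at 2 h, or 0.26 (SE 0.17) at 2 h without the libraries labelled CTRL and ODC replicate 2. A pseudogene, FECHP1, is annotated. PPOX (chromosome 1, 161166056 to 161178013, plus strand) was at 12.1, 18.1 and 11.8 CPM in CTRL and at 11.1, 13.5 and 7.59 CPM in ODC at 24 h, which overlapped. Its log2 fold change was -0.38 (SE 0.25) at 24 h and 0.09 (SE 0.21) at 2 h. PPOX overlaps B4GALT3 and an unnamed annotated gene on the other strand.

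**Figure D4:**
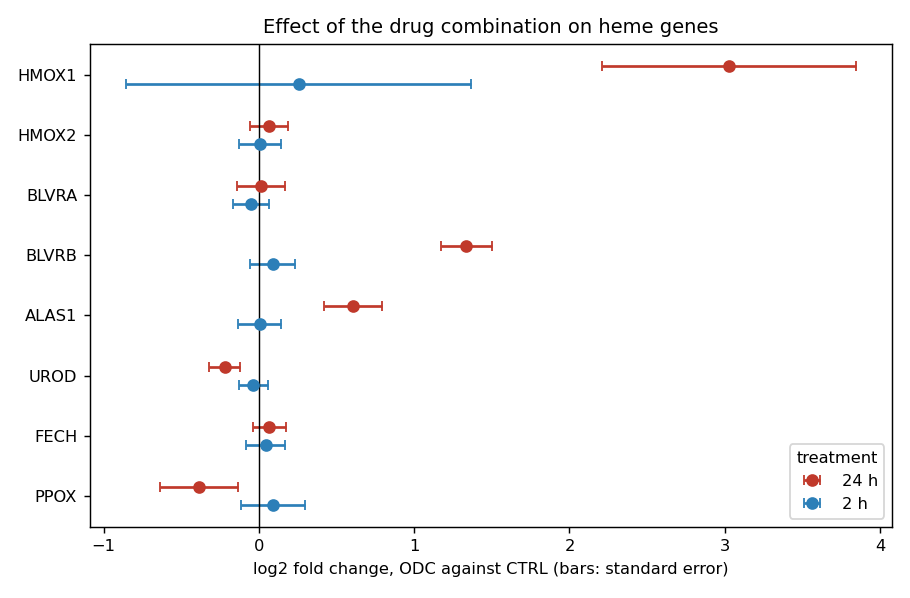
Log2 fold change of ODC against CTRL (horizontal axis) of the 8 genes at 24 h (red) and at 2 h (blue, all 5 libraries). Bars are standard errors, derived from the F statistic of each test. At 24 h HMOX1 is at 3.03 and BLVRB at 1.34, and at 2 h all 8 lie between -0.05 and 0.26, with an SE of 1.11 for HMOX1.

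At 2 h as labelled, 0 of the 8 genes passed the adjusted threshold, beside 0% of the 13332 genes tested with edgeR's quasi-likelihood test. At an unadjusted p under 0.05 the counts were 0 of 8 and 312 of 13332 (2.34%). DESeq2 called 1 gene and edgeR's likelihood ratio test 5 over the whole table, none of them a member. The groups did not overlap for 0 of the 8 genes, beside 15.3% of all genes. Without the libraries labelled CTRL and ODC replicate 2, the test called 182 genes, HMOX1 among them, whose values were known when these libraries were set aside. When the 24 h effect was tested against the 2 h effect, 0 of 8 passed the adjusted threshold, beside 0.015% of 13333 genes, and 2 of 8 (BLVRB and ALAS1) had an unadjusted p under 0.05, beside 5.93%. That difference for HMOX1 was 2.77 (SE 1.56) with all libraries and -0.30 without the libraries labelled CTRL and ODC 2 h replicate 2.

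Across genes, levels can be set side by side only per length. In CPM per kilobase of canonical transcript, the CTRL libraries at 24 h ranked UROD first at 68.0 ± 5.90, then HMOX2 at 58.0 ± 8.41, BLVRB at 37.3 ± 5.31, BLVRA at 22.1 ± 2.90, ALAS1 at 20.6 ± 3.47, HMOX1 at 16.8 ± 8.20, PPOX at 8.08 ± 2.05 and FECH at 4.00 ± 0.088 (SD, n = 3 each). The neighbours UROD and HMOX2, and BLVRA, ALAS1 and HMOX1, had ranges that overlapped. In the ODC libraries at 24 h HMOX1 had the highest mean, 136.7 ± 155, on a range of 31.9 to 315.0 that spanned those of BLVRB (94.3 ± 17.7), HMOX2 (60.8 ± 4.02) and UROD (58.4 ± 3.27). BLVRB thus stood above HMOX2 and UROD in ODC and below both in CTRL. FECH is long (7689 bases, against 799 for BLVRB), which lowers its level on this scale.

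The other genes of the pathway were taken from lists of 72 genes by role, of which 59 were tested at 24 h. At an adjusted p under 0.05 in edgeR's quasi-likelihood test, 3 of 59 were higher in ODC and 0 lower, beside 0.165% and 0.0236% of all genes. They were the ferritin chains FTL and FTH1, which store iron, and ABCC3, a transporter known to carry conjugated bilirubin and other conjugates. Of the other bilirubin genes, ABCC2, another export pump, was at 0.08 (SE 0.32) on the log2 scale, and UGT1A1, which conjugates bilirubin, and SLCO1B1 had 0 counts in every library. The median log2 fold change of the 59 was 0.02, beside 0.00 over all genes, and 33 of the 59 were above 0, beside 50.1% of all genes. The lists were chosen with earlier results of these data known.

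**Figure D5:**
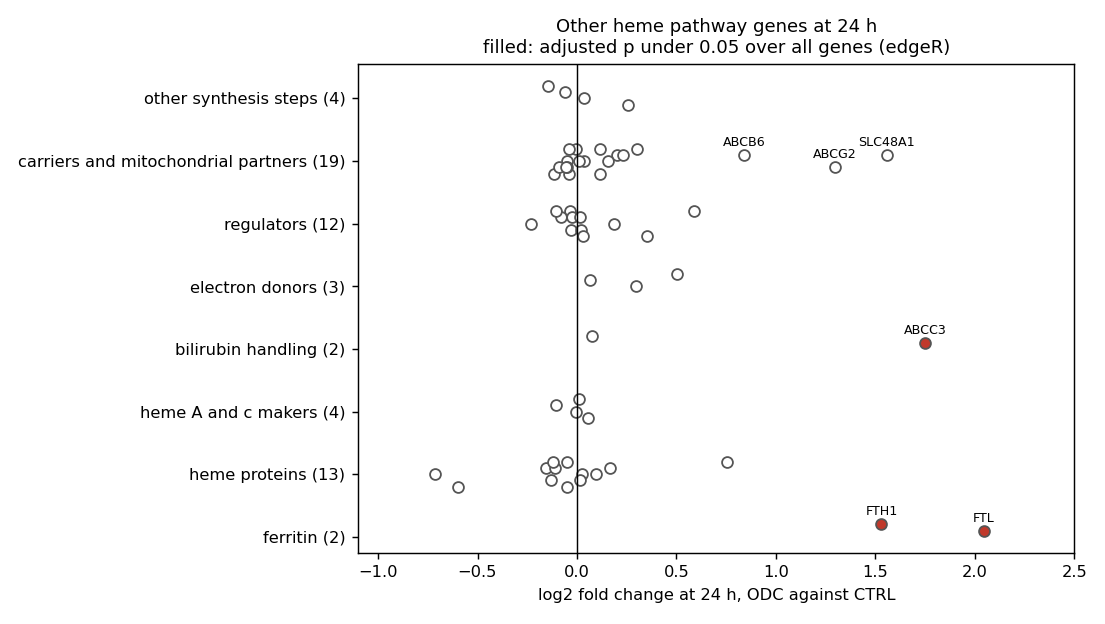
Log2 fold change at 24 h (horizontal axis) of the other pathway genes tested, by role (rows, number of genes in brackets). Each circle is a gene, and filled circles passed an adjusted p under 0.05. FTL, FTH1 and ABCC3 are filled, at 2.04, 1.53 and 1.75.

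FTL, the light chain, had 274, 265 and 327 CPM in the CTRL libraries and 1033, 1303 and 1235 CPM in the ODC libraries at 24 h, with no overlap. It rose by 2.04 on the log2 scale (SE 0.13), with an adjusted p of 0.00216 in edgeR's quasi-likelihood test, and passed in all 15 alternatives. FTH1, the heavy chain that oxidizes the iron, went from 1021, 1333 and 1178 CPM to 3139, 3871 and 3189.5 CPM. It rose by 1.53 (SE 0.14, adjusted p 0.0110 in edgeR), and missed the threshold without CTRL 24 h replicate 1 or ODC 24 h replicate 1. Both ferritin genes have pseudogenes, and reads shared with these could not be checked. ABCC3 was at 16.5, 20.2 and 20.8 CPM in CTRL and at 56.2, 88.1 and 48.8 CPM in ODC, without overlap. It rose by 1.75 (SE 0.23, adjusted p 0.0404 in edgeR), and missed the threshold in the same 4 leave-outs as BLVRB.

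In the remaining roles no gene passed at 24 h. Of 4 other synthesis enzymes tested, UROS, which closes the porphyrin ring, had the smallest p, with a log2 fold change of 0.26 (SE 0.14, adjusted p 0.53 in edgeR). ALAD and CPOX were at -0.15 (SE 0.26) and -0.06 (SE 0.13). Of 19 carriers and mitochondrial partners, SLC48A1, a heme transporter of the lysosome, went from 9.70, 19.2 and 13.1 CPM to 50.1, 47.5 and 26.1 CPM, without overlap. Its log2 fold change was 1.56 (SE 0.31, adjusted p 0.11 in edgeR), and it passed in 5 of 15 alternatives, DESeq2 and the likelihood ratio test among them. ABCB6, a porphyrin transporter, was at 20.0, 28.7 and 28.9 CPM in CTRL and at 44.2, 42.0 and 52.7 CPM in ODC, with a log2 fold change of 0.84 (SE 0.17, adjusted p 0.11 in edgeR). It passed in 3 of 15 alternatives. ABCG2, which exports porphyrins, was low at 0.261 to 0.553 CPM in CTRL and 0.688 to 1.44 CPM in ODC.

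Among 12 regulators tested at 24 h, BACH1 and NFE2L2 were close to 0 on the log2 scale, at -0.03 (SE 0.15) and -0.03 (SE 0.09). MAFK, a small Maf partner of both, was at 0.59 (SE 0.19, adjusted p 0.27 in edgeR), MAFG at 0.35 (SE 0.20) and KEAP1, the adaptor that targets NRF2 for degradation, at 0.18 (SE 0.09). The electron donor POR, which heme oxygenase needs, was at 0.29 (SE 0.15, adjusted p 0.49 in edgeR), CYB5A at 0.50 (SE 0.31) and CYB5R3 at 0.06 (SE 0.09). Of 13 heme proteins, CYP1B1, a cytochrome P450, was at 0.75 (SE 0.20, adjusted p 0.19 in edgeR), HBB at -0.71 (SE 0.34) on at most 19 counts, and SDHC at 0.16 (SE 0.10). The makers of heme A and of c-type cytochromes lay between -0.11 for COX11 and 0.05 for HCCS.

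At 2 h, 0 of 60 of these genes passed an adjusted p under 0.05 in edgeR's quasi-likelihood test, and 2 of 60 had an unadjusted p under 0.05 (TSPO and POR, both higher in ODC), a share close to the 2.34% of all genes. TSPO, a porphyrin-binding protein of the outer mitochondrial membrane, was named after its values were seen. Without the libraries labelled CTRL and ODC 2 h replicate 2, MAFG and CYP1B1 passed. MAFG was at 70.1 CPM in CTRL replicate 1 and at 154 and 146 CPM in ODC replicates 1 and 3, a log2 fold change of 1.11. It was at 155 CPM in the library labelled CTRL replicate 2 and at 89.0 in the library labelled ODC replicate 2. CYP1B1 was at 41.1 CPM in CTRL replicate 1 and at 150.1 and 103 CPM in ODC replicates 1 and 3, a log2 fold change of 1.64. It was at 162 CPM in the library labelled CTRL replicate 2 and at 143 in the library labelled ODC replicate 2, within the range of the other ODC libraries. Both were called in a fit of 1 CTRL and 2 ODC libraries, chosen after the data were seen, so these calls support nothing.

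The genes most like HMOX1, BLVRB and ALAS1 were ranked by Pearson r of log2 CPM, centred within each time, over 11 libraries and 13333 genes. The libraries share the treatment and the times, so r is a description only. Closest to HMOX1 were OSGIN1 (r = 0.984), TXNRD1 (0.968) and MIR22HG (0.955), with r between 0.946 and 0.983 over the 6 libraries at 24 h and between 0.965 and 0.991 over the 5 at 2 h. OSGIN1 had 6.77, 3.70 and 9.57 CPM in CTRL and 15.8, 11.3 and 44.8 CPM in ODC at 24 h, which is the order of HMOX1 in every library. Closest to BLVRB were AKR1C2 (r = 0.970), TALDO1 (0.962) and NEO1 (0.956). Over the 5 libraries at 2 h their r was 0.894, 0.282 and 0.411, so the likeness to TALDO1 and NEO1 came from 24 h. AKR1C2 had 0 to 3 counts in every library at 2 h, at or under the floor, so its r there is not readable, and at 24 h it had 0 counts in all 3 CTRL libraries and 5 to 15 counts in the ODC libraries. AKR1C2 has close relatives in sequence, and its reads are uncertain for that reason. Closest to ALAS1 were CANX (r = 0.965), SUSD6 (0.956) and POFUT1 (0.955).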

How the data were processed

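Stranded mRNA libraries were sequenced as single-end reads, aligned by the authors to hg38 with STAR and counted per gene with HTSeq 0.9.1, as given in the submitters' processing notes. The authors deposited these raw counts, without normalization, in 2 tables of 26485 symbols. The annotation release and strand setting of the counting are not given in the sources used here. ODC was compared with CTRL at each time, and the effects between times in 1 joint fit, with edgeR 4.0.16 in R 4.3.3 (quasi-likelihood F test, two-sided, TMM factors, filterByExpr with a minimum count of 10 and total of 15, Benjamini-Hochberg over all genes tested). Each SE is the absolute log2 fold change divided by the square root of the F statistic, so it restates the test and is not a separate estimate. Replicates were numbered in accession order. The members and lists were chosen with earlier results of these data known. The genes named are all members, ferritin, BACH1 and NFE2L2, list genes that passed, at most 3 others per list with the smallest p at 24 h, and the 3 genes most like HMOX1, BLVRB and ALAS1 (log2 CPM with a prior count of 2); others are marked. Lengths and positions came from GENCODE release 44 canonical transcripts. On simulated 24 h libraries, 95% of 4-fold and 62% of 2-fold changes were found, at 2 h 94% and 72%, and for the difference of effects 79% and 47%. The simulated libraries were independent draws with correct labels, so these shares may not hold for the real libraries, where labels at 2 h are in doubt. Alternatives covered filters, scaling, DESeq2 1.42.0 and other edgeR tests, the joint fit and each library left out; leaving out both doubtful 2 h libraries was added after seeing the data.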

Additional observations from a re-analysis of the deposited data

Results flagged for a closer look

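FTL, the ferritin light chain, was the pathway gene whose effect differed between the times, by 1.92 on the log2 scale (SE 0.22, adjusted p 0.0174 in edgeR's quasi-likelihood test). Its log2 fold change was 2.04 at 24 h, where it was higher in 3 of 3 ODC libraries, and 0.11 at 2 h. The call held in 12 of 20 alternatives. It was lost without the libraries labelled CTRL and ODC 2 h replicate 2 together, and when any 1 of the libraries CTRL 2 h replicate 2, ODC 2 h replicates 1 to 3, CTRL 24 h replicates 1 and 2, or ODC 24 h replicate 2 was left out. Without the 2 libraries together the difference was 1.54 (SE 0.21, adjusted p 0.127 in edgeR). CLPX, a mitochondrial chaperone from the list of mitochondrial partners, had groups that did not overlap in opposite directions at the 2 times. It was lower in ODC at 24 h, at 50.5 to 58.1 CPM against 58.6 to 60.2 CPM, and higher in ODC at 2 h, at 51.1 to 56.2 CPM against 46.9 and 49.4 CPM. The difference of -0.27 (SE 0.13) did not pass (adjusted p 0.87 in edgeR). Groups were too small for a test of single libraries against their group.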

How the results depend on the processing

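No paired analysis was made because no number in the labels links a CTRL library to an ODC library. At 24 h the library numbers alternated between CTRL and ODC, which would allow a pairing. Taken in that order, HMOX1, HMOX2, BLVRB, ALAS1 and PPOX ranked their replicates alike in both groups, and BLVRA, UROD and FECH did not. An effect shared by such pairs was not tested, and the SEs treat the libraries as unpaired. BLVRB at 24 h kept its sign in all 15 alternatives, and HMOX1 at 2 h did not. At 24 h, 24 genes, 1 member and 3 other pathway genes were called. The counts of all genes were 92 with every gene of at least 1 count kept, 401 with the likelihood ratio test, 386 with DESeq2, 186 in the joint fit, and 2 to 70 with a library left out (2 without CTRL replicate 1, 3 without ODC replicate 1, 4 without CTRL replicate 2, 12 without CTRL replicate 3 and 70 without ODC replicate 3). Members called were 2 with the likelihood ratio test, where HMOX1 was added, and 0 to 1 with a library left out. Other pathway genes called were 6 with the likelihood ratio test and with DESeq2, 5 in the joint fit and 1 to 4 with a library left out. At 2 h, 0 genes were called, but 5 with the likelihood ratio test, 1 with DESeq2, 0 to 42 with a library left out (42 without the library labelled CTRL replicate 2) and 182 without both doubtful libraries. Members called there were 0 with any library left out and 1 without both, and other pathway genes 0 to 1 and 2. For the difference of effects, 2 genes were called, but 7 with every gene of at least 1 count, 37 with the likelihood ratio test, 36 with DESeq2, 0 to 4 with a library left out and 0 without both doubtful libraries. There 1 member, BLVRB, was called with the likelihood ratio test and with DESeq2, and the count of other pathway genes was 1, but 2 with every gene of at least 1 count, 3 with either of those tests, 0 to 1 with a library left out and 0 without both doubtful libraries. The HMOX1 log2 fold change lay between 1.51 and 3.50 at 24 h, and between -1.05 and 3.32 at 2 h. The causes were not tested. With 2 or 3 libraries a group, a miss of the threshold does not show that a gene did not change.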
